A study of Sus scrofa with 24 samples.

Results

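The regional identity of the female reproductive tract is set by homeobox genes, and 10 of these positional genes were followed in the utero-tubal junction (UTJ) of the sow, the short passage between the uterine horn and the oviduct where the sperm reservoir forms. They were HOXA9, HOXA10, HOXA11, HOXA13, HOXD10 and HOXD11 of the HOX family, the paired-box genes PAX2 and PAX8, and the homeobox genes EMX2 and LHX1. A probe set (the group of probes that together measure a transcript) was taken for a gene when the annotation of the array gave it that symbol alone, and the probe set with the highest mean over all arrays was used where there were several. By this rule 8 of the 10 genes were measured, among 12365 genes with 1 symbol and 27558 probe sets in all, and PAX2 and PAX8 were not analysed here. The data come from 24 arrays of the type Porcine Gene 1.0 ST of Affymetrix, and all values are normalised log2 intensities, so that a difference of 1 is a 2-fold difference.

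Of the 24 arrays, 8 were labelled control, from sows given 50 ml of Beltsville Thawing Solution (BTS, a semen extender), 8 were labelled mated and 8 were labelled SP-infused, from sows given 50 ml of sperm-free seminal plasma (SP). By the labels the tissue was collected within 24 h of treatment. All animals were weaned Swedish Landrace sows, treated on the first day of behavioural oestrus and operated on the next day. The methods give BTS for the controls in one place and untreated females in another. Each group had 4 sows, and the left and the right junction of a sow were both sampled. No source names the arrays that share a sow. Each array was therefore treated as 1 sample, and p-values are too small where both sides of a sow are alike. Each junction was removed whole and cut lengthwise, with 1 piece frozen for RNA, so an array holds mucosa, muscle and serosa of a stretch of tract, and fewer cells of a type cannot be told apart from less RNA per cell.

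During development the Müllerian ducts give rise to the oviducts, the uterus, the cervix and the upper vagina. In the mouse the Hox genes at the end of the A cluster are expressed in an order along this tube that follows their order on the chromosome, with Hoxa9 in the oviduct, Hoxa10 in the uterus, Hoxa11 in the uterus and cervix and Hoxa13 in the cervix and vagina, and part of this order is kept in the adult. Lhx1, Pax2, Pax8 and Emx2 act earlier, when the duct and its epithelium form, again as known from the mouse. The UTJ lies where the oviduct and uterine domains meet.

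The A cluster genes stand side by side in the RefSeq annotation of Sscrofa11.1, in the order HOXA13, HOXA11, HOXA10 and HOXA9. HOXD11 and HOXD10 lie in the D cluster, where this annotation lists HOXD9 between them, an order that was not tested. The probe set of HOXA10 lists that symbol for 2 gene entries, of which 1 is HOXA10 in the current table. HOXD10 had 2 probe sets, and the brighter one used here (mean of 7.37) carries a gene number that the current table does not hold, while the dimmer one (mean of 6.22) carries the current HOXD10 number. Their values ran with a Pearson r of 0.67 and a Spearman rho of 0.57 within groups over the 24 arrays.

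Among the oviduct genes of the tract, HOXA9 was the 1 that could be followed. Its level had a median of 8.79 in control arrays (lowest 7.93, highest 9.50), of 9.41 in mated arrays (lowest 8.57, highest 10.25) and of 9.08 in SP-infused arrays (lowest 8.60, highest 9.87). Control arrays 1, 3, 6 and 8 (7.93 to 8.47) lay below every mated and every SP-infused array, and the other 4 control arrays lay among them. The groups therefore overlapped, and 3 of 8 mated arrays exceeded the highest control. The means were 8.72 ± 0.66 in control, 9.41 ± 0.55 in mated and 9.15 ± 0.45 in SP-infused arrays (SD, n = 8 arrays each). HOXA9 was thus 0.69 higher on the log2 scale in mated than in control arrays (1.61-fold, SE 0.26, 95% interval 0.15 to 1.23), with an unadjusted p of 0.0149 and an adjusted p of 0.365 over all probe sets (limma with Benjamini-Hochberg adjustment). In SP-infused arrays it was 0.43 above control (interval -0.11 to 0.97, adjusted p = 0.891, limma) and mated arrays stood 0.26 above SP-infused ones (interval -0.28 to 0.80, adjusted p = 0.998, limma). The difference between mated and control arrays did not pass the test after adjustment.

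HOXA10, a uterine gene that the mouse needs for implantation, showed a smaller difference that rested on 1 array. It ran from 7.55 through 9.29 to 9.74 in control, from 8.34 through 9.58 to 9.93 in mated and from 9.01 through 9.33 to 9.77 in SP-infused arrays. The lowest value belonged to control replicate 1, and the other 7 controls lay between 8.82 and 9.74. Mated arrays were 0.25 above control (SE 0.25, adjusted p = 0.716, limma) and SP-infused arrays 0.28 above it (SE 0.25, adjusted p = 0.893, limma). Without control replicate 1 these differences were 0.02 and 0.05. Control replicate 1 stood apart as a whole. The values of its 27558 probe sets had an SD of 1.91 (2.04 to 2.14 on the other 23 arrays) and a median of 5.99 (5.75 to 5.93 on the others), and its mean correlation with the other arrays was the lowest (0.950). HOXA9 was not among the results that rested on it, since leaving out any 1 array gave differences between mated and control arrays of 0.57 to 0.80 with unadjusted p of 0.00489 to 0.0396 and adjusted p of 0.234 to 0.577 (limma).

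HOXA11, which in the mouse is needed in the uterine stroma and glands, varied widely within each group. It ran from 4.84 through 5.32 to 6.17 in control, from 4.20 through 5.18 to 6.22 in mated and from 3.92 through 5.50 to 6.20 in SP-infused arrays. The lowest value was that of SP-infused replicate 5. Mated arrays differed from control by -0.23 (SE 0.28, interval -0.81 to 0.34), and SP-infused arrays differed by 0.04 (interval -0.54 to 0.62). Leaving out SP-infused replicate 5 moved the latter to 0.26. HOXA13, the gene of the cervical and vaginal end in the mouse, was dim on every array, between 2.67 and 3.77, and such values leave little room for a difference to show. It differed from control by -0.16 in mated and by -0.06 in SP-infused arrays.

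The D cluster genes gave the same picture of wide spread without a separation of groups. HOXD10 ran from 6.78 through 7.15 to 8.34 in control, from 6.58 through 7.49 to 8.46 in mated and from 5.93 through 7.39 to 8.50 in SP-infused arrays. Its lowest value was again that of SP-infused replicate 5. The differences from control were 0.15 (interval -0.45 to 0.74) in mated and 0.02 (interval -0.58 to 0.62) in SP-infused arrays, and those of the dimmer HOXD10 probe set were 0.19 and 0.14 (adjusted p of 0.549 and 0.893, limma). HOXD11 had means of 5.91 ± 0.34 in control, 5.69 ± 0.36 in mated and 5.87 ± 0.26 in SP-infused arrays (SD, n = 8 each). Of the mated arrays 5, from 5.26 to just under 5.50, lay below the lowest control array (5.50) and the other 3 lay among the controls, with a difference of -0.22 (SE 0.16, adjusted p = 0.600, limma).

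The genes of duct formation differed little from control. EMX2, without which the mouse has no reproductive tract, had means of 7.92 ± 0.32 in control, 7.95 ± 0.26 in mated and 7.84 ± 0.18 in SP-infused arrays (SD, n = 8 each). Its differences from control were 0.03 (interval -0.24 to 0.29) and -0.08 (interval -0.35 to 0.19). LHX1, a LIM homeobox gene of the forming duct, was dim at 4.21 to 5.24, and its differences from control were -0.0023 (interval -0.25 to 0.25) and -0.05 (interval -0.30 to 0.20). The signs of the LHX1 differences changed with the scaling of the arrays.

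**Figure D1:**
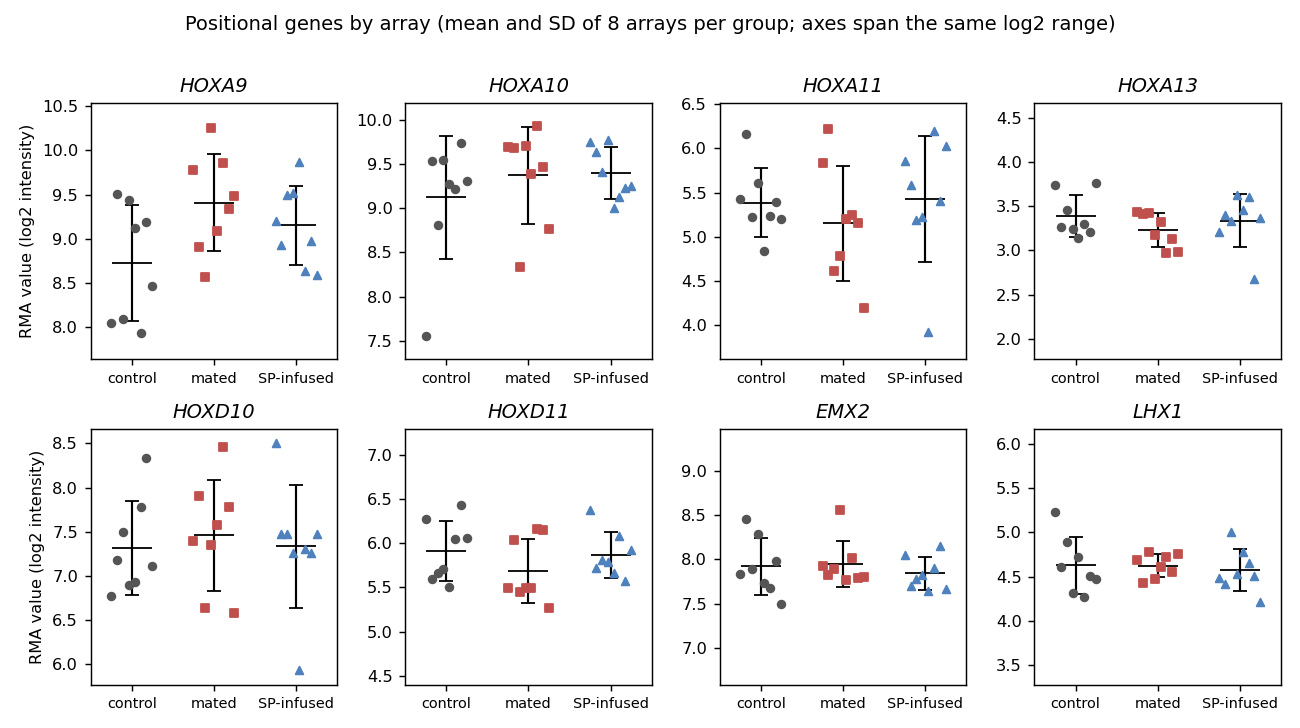
Level of each measured gene on every array. The y axes give normalised log2 intensities and span the same number of log2 units, each point is 1 array (control, mated or SP-infused), and the line and bar are the mean and SD of 8 arrays. Control replicate 1 is the low HOXA10 point (7.55) and SP-infused replicate 5 the low HOXA11 (3.92) and HOXD10 (5.93) points.

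At an adjusted p under 0.05, 0 of the 8 genes were called in each of the 3 comparisons, as were 0 of all 27558 probe sets (0%, limma). At an unadjusted p under 0.05 the mated against control comparison called 1 of 8, HOXA9, in the higher direction, beside 11.4% of all probe sets (2.88% higher and 8.52% lower). With the array medians made equal the background turned to 1543 probe sets higher and 1154 lower, against 793 and 2349 as deposited, and HOXA9 was then 0.75 higher (adjusted p = 0.410, limma). SP-infused against control called 0 of 8 beside 5.15% of all probe sets (1.4% higher and 3.76% lower), and mated against SP-infused 0 of 8 beside 3.34% (1.52% higher and 1.82% lower). The 8 genes divided evenly in each comparison, 4 higher and 4 lower, with medians of 0.01, -0.01 and 0.01 beside medians over all probe sets of -0.05, -0.04 and -0.01. Comparisons with control share the same 8 control arrays. The plot of differences with their intervals shows HOXA9 in mated arrays as the single interval that leaves out 0.

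**Figure D2:**
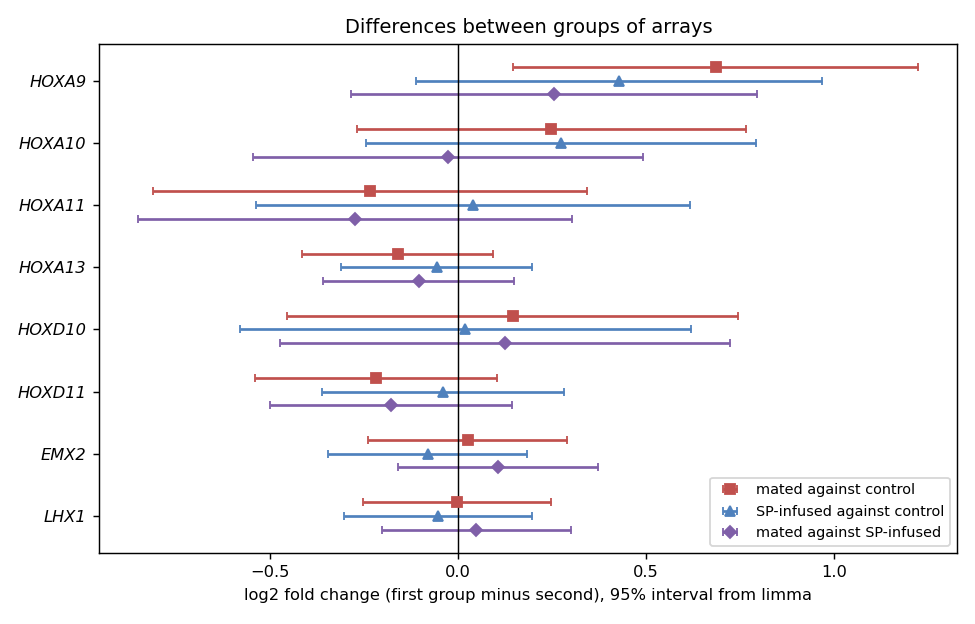
Differences between groups of arrays for the 8 measured genes. The x axis gives the log2 fold change (first group minus second), points are estimates of limma and bars their 95% intervals over 24 arrays, with no adjustment for the number of probe sets. Only HOXA9 in mated against control (0.69, interval 0.15 to 1.23) leaves out 0.

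The spread between arrays of the same group was larger than the differences from control, except for HOXA9 in mated arrays, where the difference of 0.69 exceeded the SD. The pooled within-group SD was 0.62 for HOXD10, 0.60 for HOXA11, 0.56 for HOXA9 and 0.54 for HOXA10, which exceeded the SD of 91.6% to 94.7% of all probe sets. HOXD11 (0.32), EMX2 (0.26), HOXA13 (0.25) and LHX1 (0.24) were nearer the middle of the array, and of these HOXA13 and LHX1 were dim. HOXA9 and 3 of the 4 uterine genes were thus the ones that differed most from junction to junction.

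The uterine genes were set against HOXA9 on each array as a rough sign of the level at which the junction was dissected. Each gene was taken relative to its own mean over the 24 arrays, since levels of different probe sets cannot be compared. The index was the mean of HOXA10, HOXA11, HOXD10 and HOXD11 minus HOXA9, the single measured gene of 3 listed for the oviduct. An index above 0 thus marks an array that leans to the uterine genes. Its median was 0.51 in control arrays (lowest -0.36, highest 1.28), -0.22 in mated arrays (lowest -1.28, highest 0.70) and 0.18 in SP-infused arrays (lowest -1.60, highest 0.71). Above 0 were 5 of 8 control, 1 of 8 mated and 5 of 8 SP-infused arrays. The highest index was that of control replicate 6 (1.28). The lowest were those of SP-infused replicate 5 (-1.60), mated replicate 4 (-1.28) and mated replicate 8 (-1.15). The index does not show which arrays hold more uterine or oviductal tissue. The lists of oviduct secretory and endometrial genes below both ran against it (r of -0.48 and -0.41).

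The mean index was 0.35 ± 0.61 in control, -0.35 ± 0.64 in mated and -0.0038 ± 0.78 in SP-infused arrays (SD, n = 8 each). The difference between mated and control arrays was -0.70, beside a within-group SD of 0.678, and leaving out any 1 array gave -0.85 to -0.57. Most of it lay in HOXA9. The uterine genes averaged -0.02, -0.03 and 0.05 in control, mated and SP-infused arrays, and HOXA9 averaged -0.37, 0.31 and 0.06 on the same scale. The index is a score over chosen genes and was not tested. The sources do not say at what height each junction was cut, and its part in the group difference of HOXA9 was not tested.

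**Figure D3:**
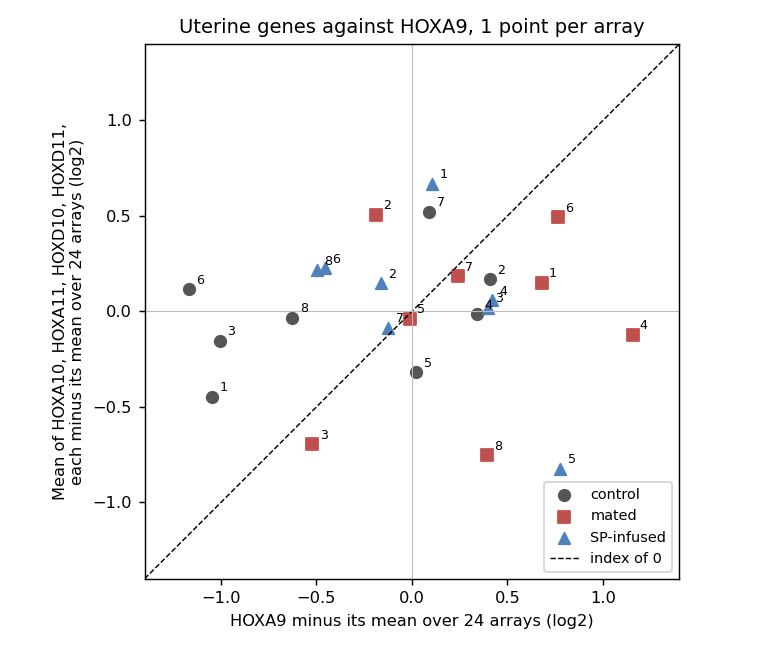
Uterine genes against HOXA9 on each array. The x axis gives HOXA9 and the y axis the mean of HOXA10, HOXA11, HOXD10 and HOXD11, each gene minus its mean over 24 arrays in log2 units, points are arrays with their replicate numbers, and the dashed line marks an index of 0. Mated replicates 4 and 8 and SP-infused replicate 5 lie farthest below the line (-1.28, -1.15 and -1.60), and control replicate 6 farthest above it (1.28).

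Some pairs of the uterine set varied together. The correlations below are Pearson r of deviations from the group means over the 24 arrays, which share sows, a normalisation and the quality of each RNA, so they are given as descriptions. HOXD10 ran with HOXD11 of the same cluster at r = 0.67 (rho = 0.66), and at 0.77 without control replicate 1. The dimmer HOXD10 probe set, which carries the current gene number, had r = 0.46 with HOXD11 and 0.56 with HOXA10. Other HOXD10 correlations and the index rest on the brighter one. HOXD10 also ran with HOXA10 at 0.59 (rho = 0.43) and with HOXA11 at 0.57 (rho = 0.45), and the latter was 0.38 without SP-infused replicate 5. Taken by group, HOXD10 and HOXA11 had r of -0.04 in control, 0.65 in mated and 0.77 in SP-infused arrays. Without replicate 5 the SP-infused value was 0.26. HOXA10 and HOXA11, which are neighbours, had r = 0.34 and, without control replicate 1, 0.48. HOXD11 had r = 0.39 with HOXA11 (-0.05, 0.54 and 0.57 in control, mated and SP-infused arrays alone). With HOXA10 it had 0.16 (-0.25 in control arrays alone, and 0.47 over all arrays without control replicate 1). Over the 28 pairs of measured genes the median r was 0.04, with 14 above 0.

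HOXA9 did not run with most of this set. Its r was -0.20 with HOXA11, -0.07 with HOXD10 and -0.20 with HOXD11. With HOXA10, the gene next to it, its r was 0.55 (rho = 0.61) and with EMX2 0.53 (rho = 0.42). Neither held in the SP-infused arrays. By group (control, mated, SP-infused) the r with HOXA10 was 0.66, 0.62 and 0.08, and with EMX2 0.69, 0.70 and -0.20. Within the SP-infused arrays HOXA9 and HOXA11 ran opposite, at r = -0.88 over 8 arrays and -0.84 without replicate 5. In control arrays the same pair had r = 0.45 and in mated arrays -0.08. Differences between groups in these r were not tested. The lowest r of all pairs, -0.62 between HOXA10 and the dim LHX1, was -0.38 without control replicate 1.

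**Figure D4:**
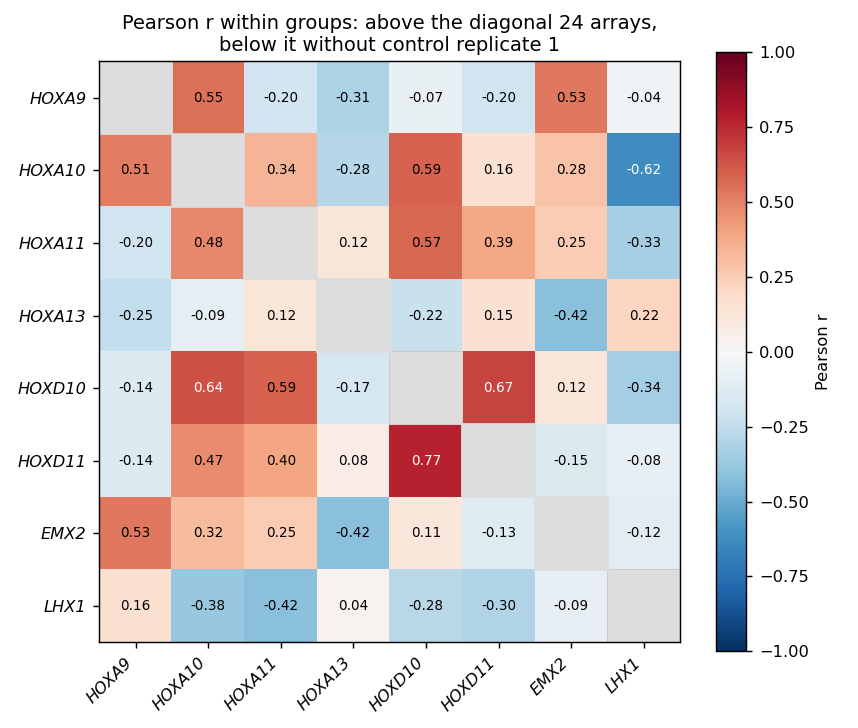
Correlation of the 8 measured genes over arrays. Colours and printed values give Pearson r of deviations from the group means, above the diagonal over 24 arrays and below it over 23 arrays without control replicate 1. HOXD10 has r of 0.59, 0.57 and 0.67 with HOXA10, HOXA11 and HOXD11, and HOXA9 has -0.07 with HOXD10.

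Among the other HOX genes, HOXA5 and HOXA7 of the same cluster ran with HOXA9. These genes, which specify more anterior levels of the body axis and were singled out after their values were seen, had r = 0.71 each, and 0.89 and 0.85 without control replicate 1. With HOXA10 the same genes had r = -0.01 and 0.12. Running with HOXA9 was neither limited to this cluster nor shared by all of it. HOXD3 and HOXD8 of the D cluster, not among the lowest p of their list, had r = 0.64 and 0.53 with HOXA9, and 0.66 and 0.53 with HOXA10. In the A cluster HOXA4, also not among the lowest p, had r = 0.50 with HOXA9, HOXA3 -0.07 and HOXA2 -0.43. HOXB8 and HOXB6 of the B cluster, also chosen after seeing values, ran against HOXA10 at -0.61 and -0.53. Of 33 further HOX genes 22 were measured, 8 of them dim (mean under 5). At an adjusted p under 0.05, 0 were called in any comparison (limma). In mated against control 8 were higher and 14 lower with a median of -0.09 (11 and 11 after cyclic loess). Beside 8.52% of all probe sets, 2 dim genes were lower at an unadjusted p under 0.05, HOXD12 by -0.32 and HOXD1 by -0.23. Without control replicate 1 there was 1 such gene. In SP-infused against control 11 were higher and 11 lower, with 0 at that p.

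Relatives of the PAX, EMX and LIM homeobox genes mostly lay lower than in control arrays, to a degree that changed with the scaling. Of 19 listed 14 were measured, 9 of them dim, and 14 of 14 were lower in mated than in control arrays and 13 of 14 lower in SP-infused ones, with medians of -0.16 and -0.14. With array medians made equal 11 and 11 were lower, and after cyclic loess 10 and 9. Of all probe sets 38.9% lay higher in mated than in control arrays. At an unadjusted p under 0.05, beside the 8.52% of all probe sets that were lower, there were 4 of 14 in mated arrays, namely LHX8 (-0.30), LHX5 (-0.27), EMX1 (-0.37) and LHX2 (-0.26) (2 after cyclic loess), and 1 in SP-infused arrays (0 without control replicate 1), where 3.76% of all probe sets were lower, with 0 at an adjusted p under 0.05 (limma). The medians were -0.10 and -0.08 without control replicate 1.

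HOX proteins bind DNA with cofactors of the PBX and MEIS families, and 7 of 9 of these genes were measured. MEIS1 was 0.42 higher in mated than in control arrays (10.78 ± 0.17 against 10.36 ± 0.60, SD, n = 8 each, adjusted p = 0.399, limma). It was the 1 of 7 at an unadjusted p under 0.05, where 2.88% of all probe sets were higher. Without control replicate 1 there were 0, and that array had the lowest MEIS1 value (9.18). In SP-infused against control 2 were higher and 5 lower, with none at that p. MEIS1 ran with HOXA9 at r = 0.67 (rho = 0.75) and MEIS2 at 0.64 (rho = 0.68), and MEIS2 with HOXA10 at 0.71 (rho = 0.78). EMX2 had PBX2 (0.79, rho = 0.61) among the 3 genes most like it.

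Of 27 genes of Müllerian duct development 18 were measured, with 7 higher and 11 lower in mated than in control arrays (11 higher and 7 lower with array medians made equal) and 11 higher and 7 lower in SP-infused ones. At an unadjusted p under 0.05 there were 1 in mated and 3 in SP-infused arrays, beside 11.4% and 5.15% of all probe sets. WNT11, a secreted signal and dim here, differed from control by -0.32 in mated and by -0.36 in SP-infused arrays (adjusted p of 0.349 and 0.891, limma). WT1, a transcription factor of the coelomic epithelium, differed by -0.42 in SP-infused arrays, and DACH1, which in the mouse acts with Dach2 in duct formation, by 0.33. Without control replicate 1 there were 0 higher genes at that p in SP-infused arrays, so DACH1 was not among them. None of these passed the adjusted test. WNT7A, a signal of the uterine epithelium that in the mouse keeps Hoxa10 and Hoxa11 on, was singled out after its values were seen and ran against HOXA10 at r = -0.67 (rho = -0.56).

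PGR and ESR1, the receptors of the ovarian steroids, ran with HOXA10 and HOXA9. PGR, the progesterone receptor, ran with HOXA10 at r = 0.85 (rho = 0.70) and, without control replicate 1, at 0.70, and ESR1, the oestrogen receptor, at 0.82 (rho = 0.80) and 0.79. With HOXA9 they had r = 0.68 and 0.75. The whole list of steroid receptors and uterine regulators had r = 0.61 with HOXA10 (13 of 20 genes above 0) and 0.09 with HOXA9 (8 of 20 above 0). Within the SP-infused group alone PGR had r = 0.12 with HOXA10 over 8 arrays, where their SDs were 0.22 and 0.29. Of 25 steroid receptors and uterine regulators 20 were measured, with 7 higher and 13 lower in mated than in control arrays. Beside 8.52% of all probe sets, 2 of the 20 were lower at an unadjusted p under 0.05. These were IHH, the hedgehog ligand of the uterine epithelium (-0.41, adjusted p = 0.363, limma), and TWIST1, a stromal transcription factor (-0.29, adjusted p = 0.438, limma), and with array medians made equal there was 1. SP-infused against control had 9 higher, 11 lower and 0 at that p. Of 9 genes linked to HOXA10 in endometrium 8 were measured. LIF, a cytokine of implantation, was the 1 at an unadjusted p under 0.05 in mated arrays (-0.38, adjusted p = 0.389, limma), beside the same 8.52%. There were 0 in SP-infused arrays and 0 in mated arrays with array medians made equal.

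MSX1, a uterine homeobox gene that acts in implantation in the mouse, ran with the uterine set. It had r = 0.75 (rho = 0.71) with HOXA11, 0.67 (rho = 0.62) with HOXD10 and 0.65 (rho = 0.62) with the index. HOXA11 and HOXD10 are part of the index, so the r of MSX1 with the index is not separate from the others. In control, mated and SP-infused arrays alone the r with the index was 0.24, 0.72 and 0.91, and over all groups without SP-infused replicate 5 and mated replicate 4 it was 0.50. Its level ran from 4.90 through 6.77 to 7.18 in control, from 4.48 through 5.64 to 7.32 in mated and from 4.91 through 6.41 to 7.33 in SP-infused arrays. Mated arrays differed from control by -0.74 (SE 0.40, adjusted p = 0.489, limma). FOXA2, the transcription factor of uterine glands, was chosen after seeing its values and was measured at 4.47 to 5.78. It had r = 0.58 (rho = 0.48) with HOXA11 and 0.57 (rho = 0.47) with the index. The latter, again not separate from the r with HOXA11, was 0.13 in control arrays alone and 0.42 without those 2 arrays. The list of endometrial gland genes went the other way. It had r = -0.41 with the index (3 of 11 genes above 0) and -0.47 with HOXA11 (1 of 11).

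OVGP1, the oviduct-specific glycoprotein secreted around ovulation, varied more than any of the positional genes and ran opposite to the index. It ran from 4.49 through 6.30 to 11.88 in control, from 5.53 through 9.03 to 11.85 in mated and from 5.36 through 8.76 to 11.94 in SP-infused arrays. The ranges of the 3 groups overlapped almost wholly. The means were 7.23 ± 2.36, 8.81 ± 1.92 and 8.61 ± 2.39 (SD, n = 8 each), and the difference of mated from control arrays was 1.57 (SE 1.03, adjusted p = 0.566, limma). Against the index its r was -0.77 (rho = -0.75), and -0.78 without SP-infused replicate 5 and mated replicate 4, the arrays farthest out. In control, mated and SP-infused arrays taken alone r was -0.83, -0.56 and -0.87. OVGP1 was among the 5 genes most opposite to the index of 8962 genes with a mean of 5 or more.

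By single genes, OVGP1 ran with HOXA9 at r = 0.51 (rho = 0.50), which was 0.70 in control, 0.04 in mated and 0.73 in SP-infused arrays alone. It ran against HOXD10 at -0.65 (rho = -0.60), HOXD11 at -0.60 (rho = -0.57) and HOXA11 at -0.52 (rho = -0.51). With HOXA10 it had r = -0.05. SP-infused replicate 5 had the highest OVGP1 (11.94), the highest HOXA9 of its group (9.87), the lowest HOXA10 of its group (9.01), the lowest HOXA11 and HOXD10 of all arrays, and the lowest MSX1 and FOXA2 of its group. The array with the lowest OVGP1 was control replicate 3 (4.49), with an index of 0.85.

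**Figure D5:**
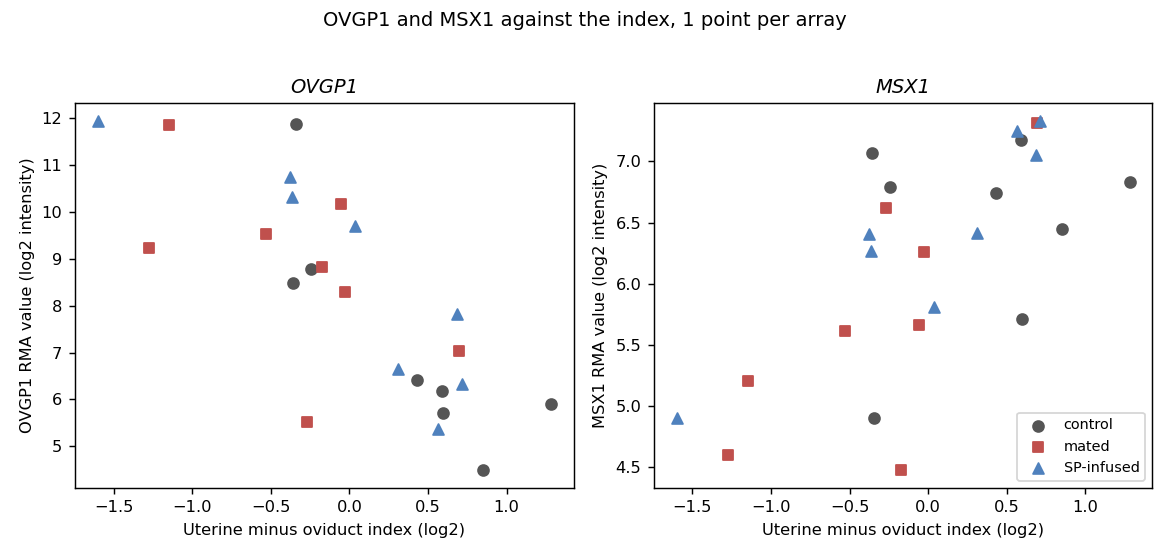
OVGP1, an oviduct secretory product, and MSX1, a uterine homeobox gene, against the index. The x axis gives the index (uterine genes minus HOXA9, log2 units above or below their means), the y axes the normalised log2 intensity, and each point is 1 of 24 arrays coloured by group. OVGP1 lies lower on arrays of higher index (r within groups -0.77) and MSX1 higher (r 0.65). An r with the index is not separate from the r with the genes that make it up.

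GABRP, a subunit of the GABA-A receptor found in epithelia, was the gene most opposite to HOXA9 and among the 5 most like the index. The index subtracts HOXA9, so its likeness to the index is not a separate finding. GABRP had r of -0.29 with HOXA10, 0.45 with HOXA11, 0.15 with HOXD10 and 0.08 with HOXD11. Its r with HOXA9 was -0.84 (rho = -0.85), and -0.79, -0.86 and -0.90 in control, mated and SP-infused arrays alone. Its means were 7.63 ± 1.29 in control, 5.77 ± 1.22 in mated and 6.09 ± 1.10 in SP-infused arrays (SD, n = 8 each). The differences from control were -1.86 in mated (SE 0.56, adjusted p = 0.326) and -1.55 in SP-infused arrays (SE 0.56, adjusted p = 0.891, limma), and neither passed after adjustment. The 5 genes most like HOXA9 were VAT1L, TRPC5, ARL6IP5, TENM2 and RTL4, with r of 0.87 to 0.85. Of all genes with 1 symbol 5% had an r with HOXA9 above 0.50.

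The gene most like HOXA10 was NOTCH2, the receptor, at r = 0.90 (rho = 0.82), and 0.82 without control replicate 1. The gene most opposite to it was FCHO1 at -0.87 (rho = -0.63), and -0.75 without that array. For HOXA10, r exceeded 0.62 in 5% of all genes, a wider background than for HOXA9. The gene most like HOXD10 was CTNNAL1 (0.79) and the gene most like HOXD11 ANKRD55 (0.81). The genes most like EMX2 were VTI1A and ASF1A (0.82 each), and the gene most like LHX1 was ARAF (0.85). The gene most opposite to the index was RTL4 (-0.82) and the gene most like it BASP1 (0.79). RTL4 was also among the genes most like HOXA9, which the index subtracts.

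Markers of the cell types in the junction were set beside the index and HOXA9. Smooth muscle and epithelium were both present, with ACTG2 of smooth muscle at 11.64 to 12.80, EPCAM of epithelium at 8.59 to 10.42 and FOXJ1 of ciliated cells at 6.56 to 8.20. Of 12 oviduct secretory genes 8 were measured. The mean of these genes, relative to their own means, lay between -1.05 and 1.14 in control arrays, between -1.69 and 1.11 in mated arrays and between -1.13 and 1.11 in SP-infused arrays. CRISP3 was near the lowest values of the array (2.59 to 3.29). This list had r = -0.67 with HOXD10 (0 of 8 genes above 0), -0.65 with HOXD11 and -0.48 with the index. The 11 measured of 15 genes of endometrial glands also ran against HOXD10 at -0.72, HOXD11 at -0.65 and the index at -0.41 (rho = -0.48). Among them CXCL14, a chemokine, had r = -0.66 with HOXD10 and -0.67 with HOXA11. The oviduct and the endometrial lists thus ran the same way against the D cluster genes and the index.

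HOXA9 ran against the leukocyte list at r = -0.71 (10 of 14 genes measured, 5 of them dim, 0 of 10 with r above 0), and HOXA10 at -0.63. The list mean lay between -0.26 and 0.33 in control arrays, between -0.42 and 0.59 in mated arrays and between -0.28 and 0.13 in SP-infused arrays. The common leukocyte gene PTPRC was measured at 6.11 to 8.28 and had r = -0.62 with HOXA9. Fibroblast genes (8 of 10 measured) had r = 0.63 with HOXA10 and 0.43 with HOXA9. Mesothelial genes (6 of 8, 3 of them dim) had r = -0.69 with HOXA10 (rho = -0.48, 2 of 6 genes above 0). Ciliated genes (13 of 18) had r = -0.59 with HOXD11, and smooth muscle genes (8 of 14) 0.27 with HOXA9 and -0.13 with the index. The part of the cell makeup in the levels of the positional genes was not tested.

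Between the groups, the marker lists and the immediate early genes (11 of 16 measured) gave 0 genes at an adjusted p under 0.05 in any comparison (limma). At an unadjusted p under 0.05 in mated against control, 3 of 6 endothelial genes were higher (PECAM1 0.41, TEK 0.42 and CLDN5 0.33), beside 2.88% of all probe sets. Lower, beside 8.52% of all probe sets, were 3 of 11 immediate early genes (NR4A2 -0.42, DUSP2 -0.45 and IER2 -0.34). Also lower was 1 each of the oviduct secretory list (EPCAM, which all these epithelia share, -0.41), endometrial (STC2 -0.37) and leukocyte (CD4 -0.20) genes. With array medians made equal the endothelial count was 3 and the immediate early count 2, after cyclic loess they were 3 and 1, and without control replicate 1 the immediate early count was 5 and the leukocyte count 0. There were 0 of the ciliated, smooth muscle, mesothelial and fibroblast genes. Of the ciliated genes 12 of 13 lay lower in mated than in control arrays (median -0.23, beside -0.05 over all probe sets) and 13 of 13 lower than in SP-infused arrays (median -0.20). The part of the ciliated genes in the members' values was not tested. In SP-infused against control 4 of 11 immediate early genes were lower at an unadjusted p under 0.05 (2 after cyclic loess), beside 3.76% of all probe sets. At that p there was also 1 each, lower, of the endometrial (STC2 -0.26), mesothelial (WT1), fibroblast (FN1 -0.65) and leukocyte (S100A9 -0.33) genes.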

How the data were processed

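The data are 24 arrays of pig UTJ tissue, grouped by their labels alone (8 control, 8 mated, 8 SP-infused), and 0 columns were left without a sample. The deposited values are log2 intensities, 1 per probe set and array, which the authors made with RMA in the oligo package (background adjustment, quantile normalisation, summary per probe set), versions not given in the sources used here. They were used as deposited. The number of arrays limits the precision.

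In R 4.3.3 with limma 3.58.1, group means were fitted to all 27558 probe sets over 24 arrays, with empirical Bayes moderation and Benjamini-Hochberg adjustment within each of 3 comparisons. The fit was tested on simulated data. Named genes are the 8 measured genes and, of each of 15 lists, the 2 to 4 genes with the lowest p against control. The 5 (HOXA9, HOXA10, index) or 3 genes most like each are also named. Exceptions include HOXA4, HOXD3 and HOXD8, and some exceptions may be unmarked. Members and lists were chosen with earlier results of these data known. Alternatives were pairwise fits, a filter on means under 5, equal medians, cyclic loess, another variance prior, array weights, the mean of a gene's probe sets, another index, a replicate block, and leaving out arrays. Leaving out control replicate 1 from correlations and lists, and rescaling the arrays for the lists, were chosen after seeing the data. Since no source names the build of the array, no coordinates are printed.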

Additional observations from a re-analysis of the deposited data

Results flagged for a closer look

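Of 27 sets of 8 arrays (the 8 genes and the index in each group), 5 held 1 array whose gap to the nearest other array, divided by the range of the set, exceeded Dixon's 95% critical value, and chance gives this in about 1 of 20 sets. HOXA10 in control replicate 1 was 7.55, with the other controls at 8.82 to 9.74. This array also had the lowest SD over all probe sets. HOXA11 in SP-infused replicate 5 was 3.92, with the others at 5.19 to 6.20, and the index of the same array was -1.60, with the others at -0.38 to 0.71. Both values share HOXA11, and OVGP1 was at its highest (11.94) on that array. HOXA13 in SP-infused replicate 7 was 2.67, with the others at 3.21 to 3.63, all dim. EMX2 in mated replicate 4, the array with the highest HOXA9 (10.25), was 8.56, with the others at 7.77 to 8.02.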

How the results depend on the processing

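Under every alternative run, 0 of the 8 genes were called at an adjusted p under 0.05 in the 3 comparisons. Of 186 values under settings other than leaving out an array, 175 kept direction and side of the threshold and 11 changed sign. For mated against control these were LHX1 at 0.058 with equal medians, 0.10 after cyclic loess and 0.093 with array weights, and EMX2 at -0.021 with array weights. For SP-infused against control they were HOXA13 at 0.016, HOXD11 at 0.010 and LHX1 at 0.034 after cyclic loess, and HOXA11 at -0.013, HOXA13 at 0.019, HOXD10 at -0.062 and LHX1 at 0.034 with array weights. The cause was not tested.

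Leaving out 1 array at a time changed signs within these ranges. For mated against control they were -0.061 to 0.10 for EMX2 and -0.053 to 0.085 for LHX1. For SP-infused against control they were -0.071 to 0.26 for HOXA11, -0.098 to 0.038 for HOXA13, -0.15 to 0.22 for HOXD10, -0.11 to 0.034 for HOXD11 and -0.11 to 0.035 for LHX1. For mated against SP-infused they were -0.11 to 0.12 for HOXA10, -0.075 to 0.29 for HOXD10 and -0.0019 to 0.11 for LHX1.

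Same-numbered arrays of different groups had deviations that correlated at -0.40 to 0.50 (median 0.03), with 9 of 24 pairs over 0.1. Each sow was in 1 group, so these values cannot show which arrays share a sow. The replicate block uses the same numbers and does not address shared sows either. With the replicate block 0 genes were called at an adjusted p under 0.05 in each comparison and HOXA9 had a p of 0.0136 and an adjusted p of 0.375 in mated against control. Dim probe sets (HOXA13, LHX1) limit what could be seen, as does the number of 4 sows per group.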
